A study of Mus musculus with 24 samples.

Results

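The glycolysis and gluconeogenesis genes of the mouse liver described here are a set of 9 listed members: Slc2a2, Gckr, Pfkfb1, Pfkfb3 and Pklr for glucose entry and breakdown, and Pcx, Pck1, Fbp1 and G6pc for glucose production. A member was taken as the probe sets annotated to its symbol, and the one whose mean signal over the 24 arrays was highest represented it. Of the 9 members, 8 had an annotated probe set (17 probe sets in all) among the 18194 genes of the array. Pfkfb1 is not analysed here.

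Male B6C3F1 mice, a hybrid strain, received diethylhexylphthalate (DEHP), a plasticiser that activates the nuclear receptor PPARα in rodent liver, at 1150 mg/kg/day by oral gavage in a volume of 10 ml/kg. Control mice received the same volume of corn oil, the vehicle. The groups were DEHP at 2, 8, 24 and 72 h and corn oil at 2, 8, 24 and 72 h, with 3 arrays each, and dosing was repeated at intervals of 24 h over 3 days. All mice were 7 to 10 weeks old when they arrived, were acclimatised for at least 5 days and ate the RM1 diet freely. The design text names 6 mice, and nothing in the labels ties the 24 arrays to animals, so a p-value here reflects the spread between samples, which may be technical. The hour of the day at which liver was taken is not given in the sources used here. Each value is the log2 signal of a probe set on 1 array, so a difference of 1 is a doubling of signal, and levels of different probe sets are not on a common scale of transcript abundance.

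The liver takes up glucose through a low-affinity transporter, traps it as glucose 6-phosphate and breaks it down to pyruvate after a meal. During fasting it runs much of the route in reverse, with separate enzymes at the irreversible steps, and releases glucose to the blood. Insulin and glucose raise transcription of the glycolytic genes, whereas glucagon and glucocorticoids raise that of the gluconeogenic ones, and PPARα is best known in this tissue for the genes of fatty acid oxidation.

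The 250 bases upstream of the start site are shown for 4 members, because these genes lead the results below or have a regulatory element that is well studied in rodents. Gckr, Pklr and Slc2a2 had the largest called differences, and Pck1 stands for the members whose level differed little between DEHP and corn oil. The sequences are from RefSeq with coordinates of GRCm38.p6, and each gene lies on the plus strand. Pklr has a pair of annotated starts, which serve the red cell and the liver transcripts, and the downstream, liver one is shown. Capitals mark motif matches, which are the consensus of the carbohydrate response element in Pklr, the nuclear receptor motif AGGTCA in Slc2a2, and the cAMP response motif TGACG on the reverse strand in Pck1.
Gckr, chr5:31297313-31297562: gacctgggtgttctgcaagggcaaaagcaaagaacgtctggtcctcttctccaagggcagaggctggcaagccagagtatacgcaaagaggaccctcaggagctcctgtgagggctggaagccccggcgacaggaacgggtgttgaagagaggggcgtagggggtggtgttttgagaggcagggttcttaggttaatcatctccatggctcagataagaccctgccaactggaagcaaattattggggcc
Pklr, chr3:89136373-89136622: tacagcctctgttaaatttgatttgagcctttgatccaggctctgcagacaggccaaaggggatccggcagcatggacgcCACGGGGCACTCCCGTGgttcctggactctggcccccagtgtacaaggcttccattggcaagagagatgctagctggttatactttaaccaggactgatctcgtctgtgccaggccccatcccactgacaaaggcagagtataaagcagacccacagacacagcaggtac
Slc2a2, chr3:28697653-28697902: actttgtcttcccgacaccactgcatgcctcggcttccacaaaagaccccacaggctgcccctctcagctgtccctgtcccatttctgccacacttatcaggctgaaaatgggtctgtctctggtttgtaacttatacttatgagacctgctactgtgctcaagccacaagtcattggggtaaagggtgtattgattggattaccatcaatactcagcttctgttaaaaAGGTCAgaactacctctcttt
Pck1, chr2:173152823-173153072: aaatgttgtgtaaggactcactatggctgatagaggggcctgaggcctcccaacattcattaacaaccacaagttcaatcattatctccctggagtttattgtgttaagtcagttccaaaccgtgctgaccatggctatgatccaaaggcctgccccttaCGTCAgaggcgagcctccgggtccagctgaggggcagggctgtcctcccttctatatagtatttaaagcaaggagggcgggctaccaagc

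Motifs were searched on both strands from 250 bases before to 50 bases after each of 15 annotated starts of the 9 members. The carbohydrate response element, at which glucose-responsive ChREBP is known to bind, matched 1 start, that of liver Pklr, with its first base at -170 from the start. It was found in 0.119% of 32851 mouse promoters, and it was added to the search after the Pklr sequence had been read. AGGTCA matched 5 of the 15 starts, against 16.3% of all promoters, and lay at -21 in Slc2a2. TGACG matched 3 starts, against 20.8% of all promoters, and lay at -90 in Pck1. The E-box CACGTG matched 2 starts, one of Pfkfb3 and one of Pcx, against 7.15% of all promoters. The pair of AGGTCA copies spaced by 1 base (DR1, which contains AGGTCA), through which PPARα with RXR is known to bind, matched 0 starts, against 0.0396% of all promoters. The same count of 0 was found for TGACGTCA, which contains TGACG (1.79% of promoters), for TGTTTAC of the FOXO and FOXA factors (3.65%) and for TTGCGCAA of C/EBP (0.183%). A match describes letters in this window, and the absence of a match says nothing of whether a factor acts on the gene.

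The mean signals of the 8 measured members lay above the middle of all genes. Fbp1 had the highest mean, 13.51, at the 99.8th percentile of genes, and Pfkfb3 had the lowest, 7.73, at the 59.8th percentile. The spread over the 24 arrays differed widely between members. Pfkfb3 ranged over 3.06 log2 units and Pklr over 1.80, whereas Pck1 ranged over 0.51 and Fbp1 over 0.35. The tissue label was checked with hepatocyte markers, of which 8 of 9 listed were measured, each at or above the 97.8th percentile of genes. Array medians ranged from 6.46 to 6.55, and replicate arrays had correlations of 0.989 to 0.996 across probe sets.

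**Figure D1:**
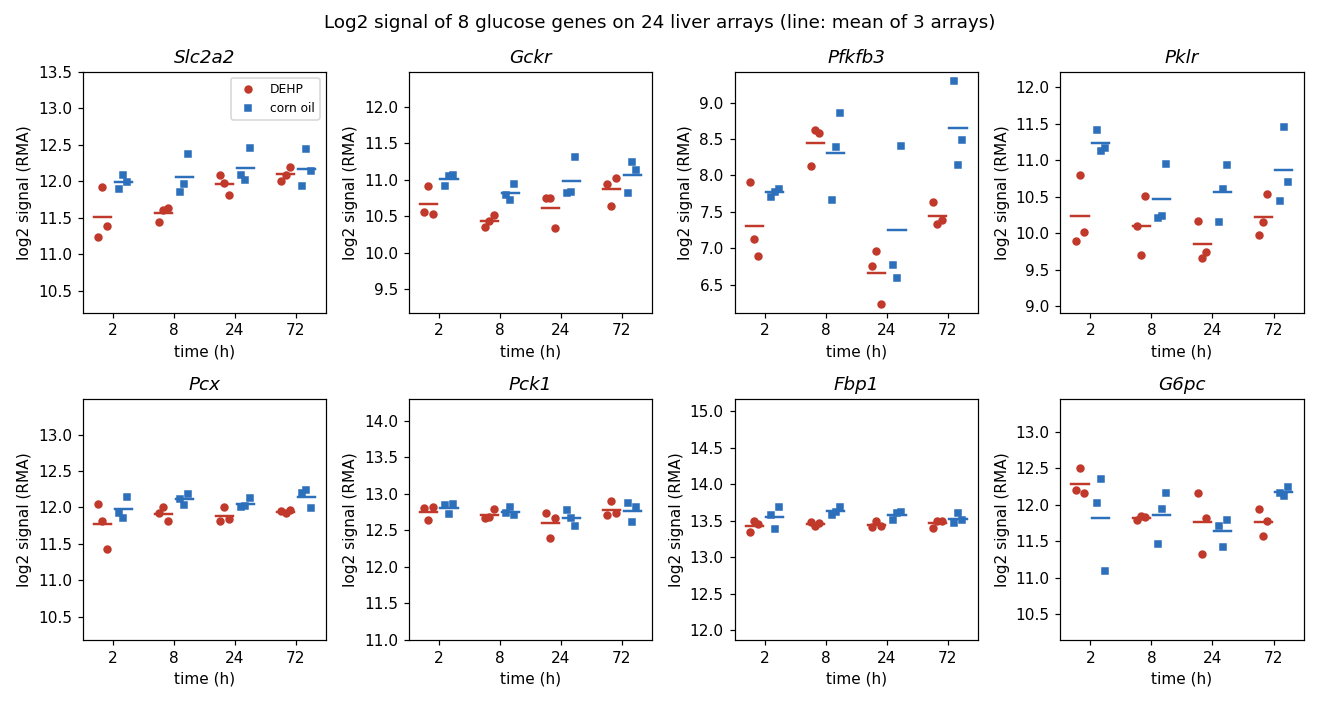
Log2 signal of the 8 measured members on each of 24 arrays, with 1 panel a gene and time on the x axis; points are arrays and bars are group means, with DEHP to the left of corn oil at each time. The group means of Pklr, Fbp1 and Pcx are lower in DEHP than in corn oil at all 4 times, while those of Pck1 lie close together and Pfkfb3 spreads widest.

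No member passed the test at any single time, but most lay lower in DEHP livers at every time. DEHP was compared with corn oil at each time by limma, with 1 model over all 24 arrays and Benjamini-Hochberg adjustment over 18194 genes, and a gene with an adjusted p under 0.05 was called. At 2 h 0 of 8 members were called, against 0.83% of all genes. At 8 h 0 of 8 were called against 4.13% of genes, at 24 h 0 of 8 against 0.297%, and at 72 h 0 of 8 against 4.18%. An unadjusted p under 0.05 was reached by 3 members at 2 h, 3 at 8 h, 2 at 24 h and 2 at 72 h, against 8.43%, 15.7%, 8.13% and 21.6% of all genes. At each of the 4 times 7 of the 8 members had a lower mean in DEHP livers. Their median difference, DEHP minus corn oil, was -0.28 at 2 h, -0.19 at 8 h, -0.20 at 24 h and -0.20 at 72 h. The median over all genes lay between -0.03 and 0 at these times. All 3 DEHP arrays lay below all 3 corn oil arrays for 2 members at 2 h, 4 at 8 h, 3 at 24 h and 3 at 72 h, against 6.72%, 13.1%, 7.47% and 18.1% of all genes, and for 0 members at any time did all DEHP arrays lie above, against 4.67%, 5.44%, 6.38% and 10.1% of genes.

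**Figure D2:**
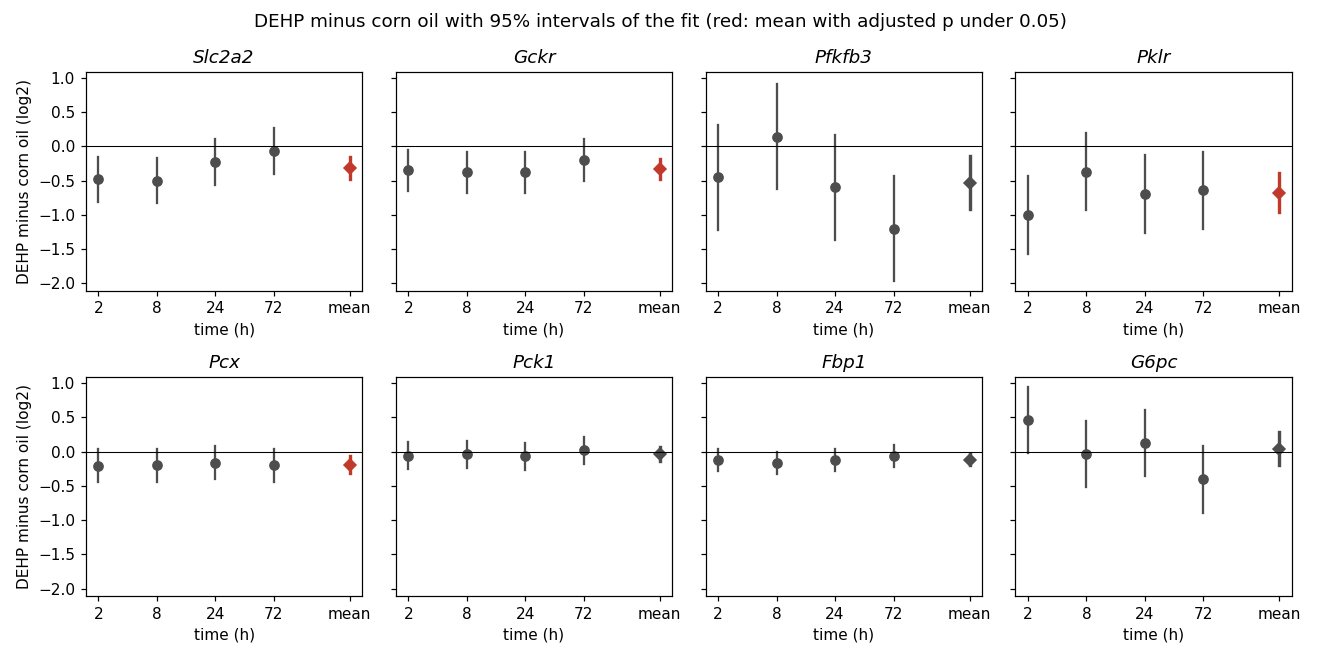
Difference in log2 signal, DEHP minus corn oil, for each member at 2, 8, 24 and 72 h, with 95% intervals from limma, and the mean over the 4 times as a diamond at the right of each panel (red where called). Of the intervals drawn, the widest are those of Pfkfb3 and Pklr and the narrowest those of Fbp1 and Pck1, and at each time 7 of the 8 differences lie below 0.

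Since the values at the single times pointed the same way, the mean of the 4 differences was also tested in the same model. This contrast was chosen after the values at each time were seen. By limma with Benjamini-Hochberg adjustment, 4 of 8 members fell (Pklr, Gckr, Slc2a2 and Pcx) and 0 rose, against 6.41% of all genes called and 4.42% called lower. All genes here include dim ones, whereas every member lay at or above the 59.8th percentile of mean signal. When only genes above the 40th percentile were tested, 11.5% of them were called, and of the members Pklr, Gckr, Slc2a2, Pcx and Fbp1. The median over the 8 members was -0.26, against -0.02 over all genes. A lower DEHP mean at all 4 times was found for 5 of 8 members (Gckr, Pklr, Fbp1, Pcx and Slc2a2), against 14.2% of all genes. In RNA of whole liver, fewer cells of a type and less RNA per cell cannot be told apart.

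**Figure D3:**
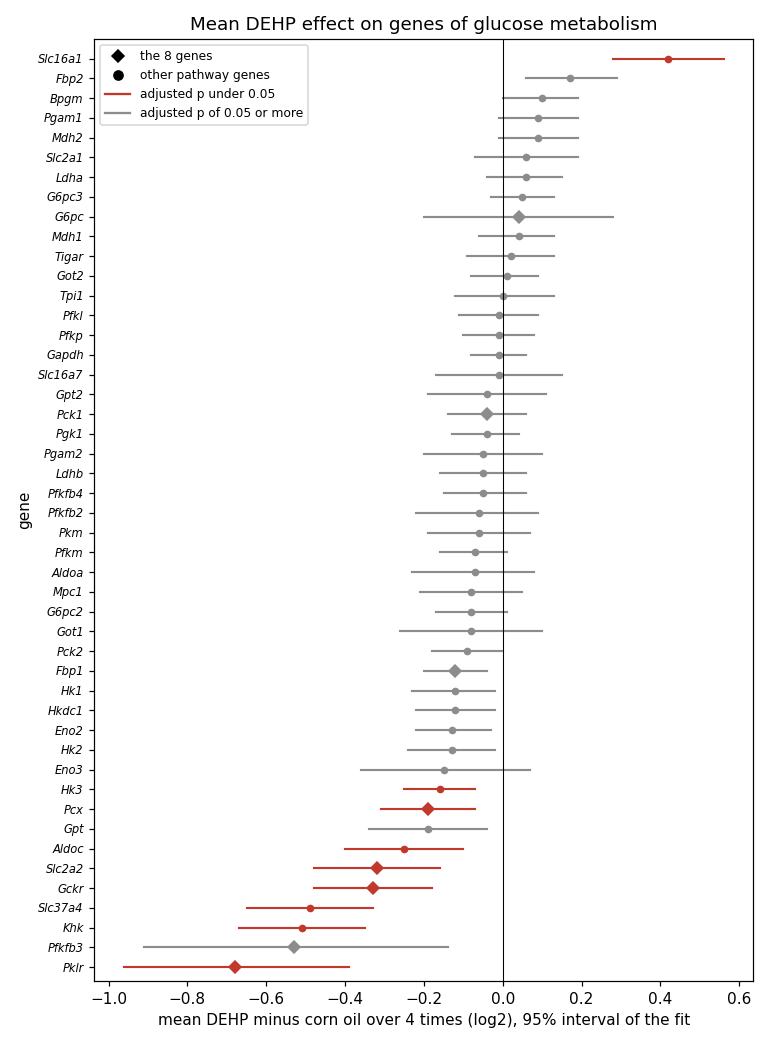
Mean over the 4 times of the DEHP minus corn oil difference in log2 signal, with 95% intervals, for the 8 members (diamonds) and 39 further pathway genes (circles), with called genes in red. The called members Pklr, Gckr, Slc2a2 and Pcx lie below 0, and the intervals of Pck1 and G6pc span 0.

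Slc2a2 encodes GLUT2, the transporter through which glucose enters and leaves the hepatocyte. At 2 h its log2 signal was 11.24, 11.92 and 11.39 with DEHP, compared with 11.90, 12.09 and 11.99 with corn oil. At 8 h it was 11.44, 11.60 and 11.64 with DEHP, compared with 11.86, 11.96 and 12.37 with corn oil. The groups overlapped at 2 h through the second DEHP array and were separate at 8 h. At 24 h it was 12.09, 11.98 and 11.81 with DEHP, compared with 12.08, 12.02 and 12.46 with corn oil, and at 72 h it was 12.01, 12.09 and 12.19 with DEHP, compared with 11.93, 12.44 and 12.14 with corn oil. At these later times the groups overlapped. The difference was -0.48 ± 0.16 at 2 h (SE, n = 3 each, limma adjusted p = 0.274), -0.50 ± 0.16 at 8 h (adjusted p = 0.0839), -0.23 ± 0.16 at 24 h and -0.07 ± 0.16 at 72 h. Leaving out 1 array moved the 2 h value to between -0.68 and -0.34 (-0.34 without the first DEHP array). It moved the 8 h value to between -0.60 and -0.35 (-0.35 without the third corn oil array). It moved the 24 h value to between -0.31 and -0.10, and turned the 72 h value to 0.06 without the second corn oil array. Slc2a2 fell by 0.32 ± 0.08 averaged over the 4 times, to 80.1% of the corn oil signal (95% interval -0.48 to -0.16, adjusted p = 0.0172), with 11 of 12 DEHP arrays below the corn oil mean of their time. Whether its effect differed between the times was not called by the F test of limma (adjusted p = 0.599). Among the 8 groups the means ran between 12.19 (corn oil, 24 h) and 11.52 (DEHP, 2 h), and the only neighbours in that order that did not overlap were DEHP at 24 h (11.96) and DEHP at 8 h (11.56). GLUT2 is also expressed by insulin-secreting cells of the pancreas. Exocrine pancreas markers were highest on the first DEHP array of 2 h, with a mean of 10.42, which was the array with the lowest Slc2a2. Islet markers averaged 6.06 on that array and 5.85 to 6.41 over all 24 arrays.

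Gckr encodes a regulatory protein of the hepatocyte nucleus that controls the entry of glucose into metabolism. At 2 h its log2 signal was 10.56, 10.91 and 10.53 with DEHP, compared with 10.92, 11.05 and 11.07 with corn oil. At 8 h it was 10.35, 10.44 and 10.52 with DEHP, compared with 10.79, 10.72 and 10.95 with corn oil. At 24 h it was 10.75, 10.75 and 10.34 with DEHP, compared with 10.82, 10.83 and 11.32 with corn oil. All DEHP arrays lay below all corn oil arrays at these 3 times. At 72 h the groups overlapped, with 10.95, 10.64 and 11.02 with DEHP, compared with 10.82, 11.25 and 11.13 with corn oil. The differences were -0.35, -0.38, -0.38 and -0.20 at 2, 8, 24 and 72 h (SE 0.15 each, limma adjusted p from 0.161 to 0.496), but the 24 h value was -0.21 without the third corn oil array, and the 72 h value was -0.08 without the second DEHP array. Gckr fell by 0.33 ± 0.07 on average, to 79.8% of the corn oil signal (95% interval -0.48 to -0.18, adjusted p = 0.00749), and all 12 of 12 DEHP arrays lay below the corn oil mean of their time. Neighbouring groups overlapped throughout the order of means, which ran between 11.07 (corn oil, 72 h) and 10.44 (DEHP, 8 h). The F test for an effect at any time did not call it (adjusted p = 0.0541).

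Pfkfb3 encodes a bifunctional enzyme that makes fructose 2,6-bisphosphate, an activator of phosphofructokinase. It differed most from array to array. At 2 h its log2 signal was 7.91, 7.13 and 6.89 with DEHP, compared with 7.70, 7.78 and 7.82 with corn oil. At 8 h it was 8.13, 8.63 and 8.58 with DEHP, compared with 7.67, 8.39 and 8.85 with corn oil. At 24 h it was 6.76, 6.97 and 6.24 with DEHP, compared with 6.77, 6.59 and 8.40 with corn oil. The groups overlapped at these times. At 72 h they were separate, with 7.63, 7.33 and 7.39 with DEHP, compared with 9.30, 8.15 and 8.49 with corn oil. The difference at 72 h was -1.20 ± 0.37 (limma adjusted p = 0.0665, 95% interval -1.96 to -0.43), the largest of any member at any time, and the averaged difference was -0.53 ± 0.18 (adjusted p = 0.0922). The highest value, 9.30, came from the first corn oil array of 72 h, on which muscle markers (mean 8.05), neutrophil markers (mean 7.38) and exocrine pancreas markers (mean 9.22) were also high, and the part of these in the value was not tested. Leaving out 1 array of 72 h gave differences from -1.44 to -0.87. The value of -0.87, without that first corn oil array, is smaller than the -1.0 of Pklr at 2 h. The other probe set of Pfkfb3 gave -0.12, 0.21, -0.21 and -0.25 at the 4 times, so the difference at 72 h was much smaller there. The differences of the probe set used were -0.45, 0.14 and -0.60 at 2, 8 and 24 h, and without the third corn oil array of 24 h that last value was -0.03, while at 8 h leaving out 1 array gave values from -0.18 to 0.41. In corn oil livers alone the group means were 7.77, 8.30, 7.25 and 8.65 at 2, 8, 24 and 72 h, a difference between times that was not called (adjusted p = 0.0993), and 0 of 8 members were called in that test, against 3.55% of all genes.

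Pklr encodes the pyruvate kinase of liver and red cells, which catalyses the last step of glycolysis and is a classic gene of the carbohydrate response element shown above. At 2 h its log2 signal was 9.89, 10.80 and 10.01 with DEHP, compared with 11.41, 11.13 and 11.16 with corn oil. At 8 h it was 10.10, 9.70 and 10.51 with DEHP, compared with 10.21, 10.24 and 10.95 with corn oil. The groups were separate at 2 h and overlapped at 8 h. At 24 h it was 10.17, 9.66 and 9.74 with DEHP, compared with 10.15, 10.60 and 10.94 with corn oil. At 72 h it was 9.97, 10.15 and 10.54 with DEHP, compared with 10.44, 11.46 and 10.70 with corn oil. At both later times 1 DEHP array reached into the corn oil range. The difference was -1.0 ± 0.27 at 2 h, a signal of 50% of corn oil (limma adjusted p = 0.113), -0.37 at 8 h, -0.70 at 24 h and -0.64 at 72 h (SE 0.27 each). Leaving out 1 array gave values from -1.28 to -0.83 at 2 h (without the second and the first DEHP array). That first DEHP array also had the highest exocrine pancreas markers (mean 10.42), whose part in the Pklr value was not tested. The values ran from -0.57 to -0.12 at 8 h (-0.12 without the third corn oil array). At 72 h they ran from -0.86 to -0.35 (without the first and the second corn oil array). Pklr was the only member called by the F test for an effect at any time (adjusted p = 0.0239), where 1 of 8 members stood against 6.46% of all genes. When only genes above the 40th percentile of mean signal were tested, 12.6% of them were called, and of the members Gckr, Pklr and Slc2a2. Pklr fell by 0.68 ± 0.14 on average, to 62.5% of the corn oil signal (95% interval -0.96 to -0.39, adjusted p = 0.00347), with 11 of 12 DEHP arrays below the corn oil mean of their time. The 4 corn oil groups filled the upper places of the order, with means of 11.23, 10.86, 10.56 and 10.47 at 2, 72, 24 and 8 h, above the highest DEHP mean (10.23 at 2 h), although each group overlapped with its neighbour. Its other probe sets were also lower in DEHP livers at every time, with differences from -1.0 to -0.15. The any-time call was lost without the first DEHP array of 2 h (adjusted p = 0.0578), without the third DEHP array of 2 h (0.0559), without the first corn oil array of 2 h (0.0532), and with a variance trend (0.0624).

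Of the 6 fits that left out 1 array of 2 h, the fit without the second DEHP array called 2 of 8 members by limma, Pklr with -1.28 (adjusted p = 0.0217) and Slc2a2 with -0.68 (adjusted p = 0.0268), and the other fits called 0. All genes called in that fit made up 1.31%, 239 genes against 151 with every array. The array had the highest Pklr (10.80), Gckr (10.91) and Slc2a2 (11.92) of its group, so larger differences follow from leaving it out and are no further evidence of an effect.

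Pcx encodes pyruvate carboxylase, which makes oxaloacetate in mitochondria and opens gluconeogenesis from pyruvate. At 2 h its log2 signal was 12.05, 11.82 and 11.43 with DEHP, compared with 11.93, 11.85 and 12.14 with corn oil, with overlap. At 8 h it was 11.92, 12 and 11.81 with DEHP, compared with 12.12, 12.03 and 12.18 with corn oil. At 24 h it was 11.82, 12 and 11.84 with DEHP, compared with 12.01, 12.02 and 12.13 with corn oil. At 72 h the groups were separate as at 8 and 24 h, with 11.95, 11.92 and 11.96 with DEHP, compared with 12.20, 12.24 and 11.99 with corn oil. The differences were -0.21, -0.20, -0.16 and -0.20 (SE 0.12 each), and the 2 h value was -0.04 without the third DEHP array and -0.35 without the first. Averaged, Pcx fell by 0.19 ± 0.06, to 87.5% of the corn oil signal (95% interval -0.31 to -0.07, limma adjusted p = 0.0477). The call was lost in 17 of 24 fits that left out 1 array, and the mean of its 5 probe sets gave -0.08 (adjusted p = 0.641).

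The 5 probe sets of Pcx did not go together at 8 h. Of these, 4 are control probe sets of the manufacturer that tile the transcript from its 3' end through 2 middle positions to its 5' end. At 8 h the difference was -0.20 for the probe set used, -0.16 for the 3' control, 0.37 and 0.47 for the middle ones and 0.58 ± 0.28 for the 5' one, and 0 of these were called (limma, adjusted over probe sets). The signal of the 3' control minus that of the 5' control was 1.57, 1.69 and 1.22 with DEHP at 8 h, compared with 2.36, 2.97 and 1.38 with corn oil at 8 h. The corn oil array with 2.97 also had the largest 3' minus 5' difference of Actb, 1.46, and the next largest, 0.82, was on the corn oil array with 2.36. These values are a common sign of RNA integrity, and their part in the 8 h pattern was not tested. At 72 h all 5 probe sets were lower in DEHP livers, with -0.20, -0.22, -0.38, -0.41 and -0.43.

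**Figure D4:**
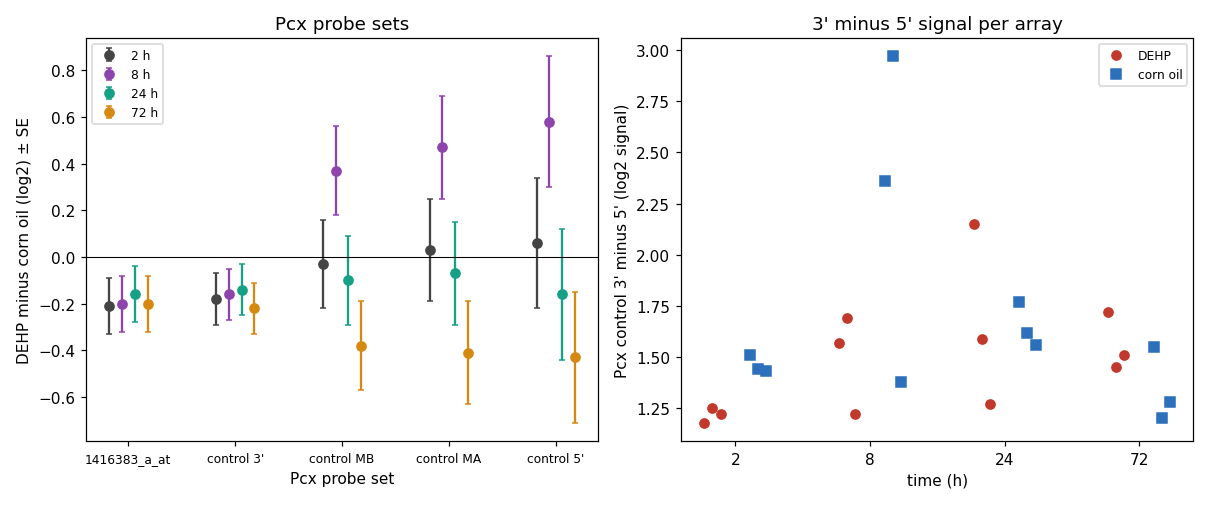
Left, difference in log2 signal, DEHP minus corn oil, of the 5 probe sets of Pcx at each time, with standard errors from limma. The probe set used is drawn first, followed by the controls from the 3' to the 5' end of the transcript. Right, log2 signal of the 3' control minus that of the 5' control on each array. At 8 h the points run between -0.20 for the probe set used and 0.58 for the 5' control, while at 72 h all 5 lie below 0.

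Pck1 encodes cytosolic phosphoenolpyruvate carboxykinase, the enzyme that is usually taken as the transcriptional control point of gluconeogenesis. The 12 DEHP arrays lay between 12.39 and 12.90, and the 12 corn oil arrays between 12.55 and 12.87. The differences were -0.06, -0.04, -0.07 and 0.02 at 2, 8, 24 and 72 h (SE 0.10 each, limma adjusted p from 0.879 to 0.946), and the groups overlapped at every time. The averaged difference was -0.04 ± 0.05, with a 95% interval of -0.14 to 0.06 (adjusted p = 0.681). The other well-detected probe set of Pck1 gave 0.37 ± 0.16 at 8 h and between -0.08 and -0.01 at the other times, and none of these differences was called.

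Fbp1 encodes fructose 1,6-bisphosphatase, which reverses the phosphofructokinase step. It was the most steady member. At 8 h its log2 signal was 13.48, 13.43 and 13.47 with DEHP, compared with 13.58, 13.62 and 13.69 with corn oil, and at 24 h it was 13.41, 13.50 and 13.42 with DEHP, compared with 13.51, 13.60 and 13.62 with corn oil. The groups were separate at these times. At 2 h Fbp1 was 13.34, 13.49 and 13.45 with DEHP, compared with 13.58, 13.39 and 13.68 with corn oil, and at 72 h it was 13.40, 13.50 and 13.49 with DEHP, compared with 13.47, 13.60 and 13.51 with corn oil, with overlap at both. The differences were -0.12, -0.17, -0.13 and -0.06 (SE 0.08 each), and none was called. Averaged, the difference was -0.12 ± 0.04, 91.9% of the corn oil signal (limma adjusted p = 0.0591), and all 12 of 12 DEHP arrays lay below the corn oil mean of their time.

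G6pc encodes the catalytic subunit of glucose 6-phosphatase, which releases free glucose in the final step shared by gluconeogenesis and glycogen breakdown. At 2 h its log2 signal was 12.21, 12.51 and 12.16 with DEHP, compared with 12.03, 12.36 and 11.09 with corn oil. At 72 h it was 11.94, 11.58 and 11.78 with DEHP, compared with 12.16, 12.12 and 12.24 with corn oil. The groups overlapped at 2 h, where 1 corn oil array was low, and were separate at 72 h. In between, G6pc was 11.80, 11.85 and 11.83 with DEHP at 8 h, compared with 11.47, 11.94 and 12.16 with corn oil, and 12.16, 11.33 and 11.82 with DEHP at 24 h, compared with 11.71, 11.43 and 11.79 with corn oil, and the groups overlapped. The differences were 0.46, -0.04, 0.13 and -0.40 at 2, 8, 24 and 72 h (SE 0.23 each, limma adjusted p from 0.321 to 0.978). G6pc was the only member with a positive difference at more than 1 time, but the 2 h value was 0.09 without the third corn oil array and the 24 h value was -0.07 without the first DEHP array. Its averaged difference was 0.04 ± 0.12 (95% interval -0.20 to 0.28, adjusted p = 0.888). The F test for a difference of effect between times called 0 of 8 members, against 2.08% of all genes, with an adjusted p of 0.437 for G6pc.

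Among 10461 genes with a mean signal above the 40th percentile, predicted genes left out, the gene most like Pklr over the 24 arrays was Khk, ketohexokinase, which phosphorylates fructose (Pearson r = 0.895), followed by Pygl, the liver glycogen phosphorylase (0.841), and Haao, an enzyme of tryptophan breakdown (0.833). These values describe arrays that share groups. Within the 12 DEHP arrays r of Pklr and Khk was 0.750 and within the 12 corn oil arrays 0.863. At 2 h Khk was 11.49, 11.92 and 11.33 with DEHP, compared with 12.22, 12.17 and 12.33 with corn oil. At 72 h it was 11.61, 11.48 and 11.50 with DEHP, compared with 11.85, 12.41 and 12 with corn oil. The groups were separate at both times. Khk fell by 0.66 ± 0.15 at 2 h (limma adjusted p = 0.0393) and by 0.56 ± 0.15 at 72 h (adjusted p = 0.0397), and each call was kept in 1 of 6 fits that left out an array of that time. Its averaged fall of 0.51 ± 0.08 (adjusted p = 0.00019) was called in all 24 fits that left out 1 array.

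**Figure D5:**
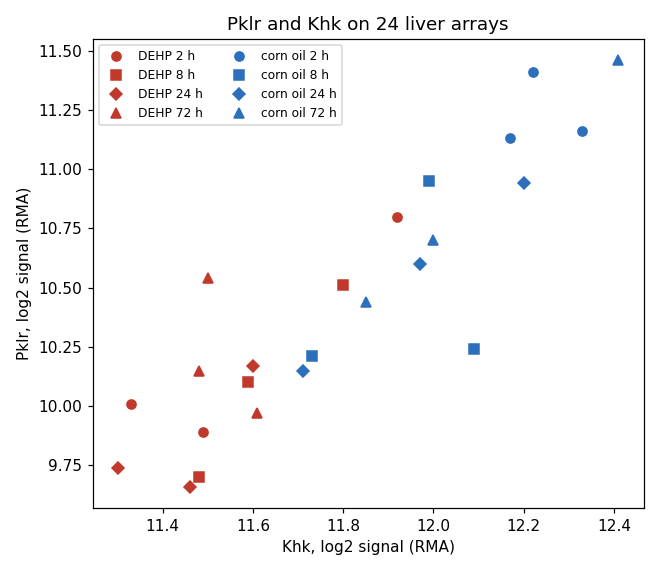
Log2 signal of Pklr (y axis) against that of Khk (x axis) on the 24 arrays, with DEHP and corn oil in different colours and the times in different symbols. Arrays with a low Pklr signal also had a low Khk signal, with r = 0.750 within the 12 DEHP arrays and 0.863 within the 12 corn oil arrays.

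Around the members, a list of 45 further genes of glucose, fructose, glycogen, lactate and pyruvate metabolism was examined, of which 39 were measured. At 2 h 1 was called higher (0.616% of all genes) and 1 lower (0.214%). At 8 h 2 were called higher (1.28% of all genes) and 1 lower (2.86%). At 24 h 0 were called higher (0.253%) and 0 lower (0.044%), and at 72 h 0 were called higher (1.13%) and 4 lower (3.05%). The median differences were -0.13, -0.01, 0.02 and -0.10. Of the mean differences 1 was called higher (Slc16a1), against 1.98% of all genes, and 4 lower (Khk, Slc37a4, Aldoc and Hk3), against 4.42%. When 1 array was left out, the mean call of Aldoc was lost in 13 of 24 fits and that of Hk3 in 7. Slc37a4, the transporter that carries glucose 6-phosphate to G6pc inside the endoplasmic reticulum, fell by 0.59 ± 0.15 at 8 h (limma adjusted p = 0.0278, kept in 3 of 6 fits without 1 array) and by 0.49 ± 0.08 on average (adjusted p = 0.000318). At 8 h it was 10.86, 10.84 and 11.10 with DEHP, compared with 11.46, 11.32 and 11.79 with corn oil, and at each of the 4 times all DEHP arrays lay below all corn oil arrays. Slc16a1, the lactate and ketone body transporter MCT1, rose by 0.73 ± 0.13 at 2 h (adjusted p = 0.0062, lost without the first DEHP array of 2 h) and by 1.07 ± 0.13 at 8 h (adjusted p = 3.28e-05). Its direction then changed, with differences of 0.21 at 24 h and -0.33 at 72 h, neither called. At 72 h all DEHP arrays of Slc16a1 lay below all corn oil arrays. Slc2a1, the glucose transporter GLUT1 of most other tissues, rose by 0.54 ± 0.12 at 8 h (adjusted p = 0.0123, lost without the third corn oil array of 8 h). The 4 genes lower at 72 h were Khk, Hk3, a hexokinase of white blood cells (-0.33 ± 0.09, adjusted p = 0.0303), Bpgm, which makes 2,3-bisphosphoglycerate (-0.37 ± 0.09, adjusted p = 0.0235), and Pck2, the mitochondrial counterpart of Pck1 (-0.30 ± 0.09, adjusted p = 0.0483). Hk3, Bpgm and Pck2 were each kept in at most 1 of 6 fits that left out an array of 72 h. At that time macrophage markers averaged 8.35 to 8.68 on the DEHP arrays, against 8.88 to 9.19 on the corn oil arrays. Of these markers 3 of 7 were called, against 4.18% of all genes, and their part in the fall of Hk3 was not tested. Pfkl, the liver phosphofructokinase, and G6pc3, a paralog of G6pc, were not called, with differences from -0.13 to 0.27 for Pfkl and from -0.11 to 0.17 for G6pc3. Ldha, the lactate dehydrogenase of liver, was called by the F test for an effect at any time (adjusted p = 0.035, lost in 14 of 24 fits without 1 array), with differences of 0.32, 0, 0.19 and -0.28, none of them called.

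Regulators of these genes were described from a list of 26, of which 25 were measured. At 2 h 1 was called higher (0.616% of all genes) and 0 lower (0.214%), and at 8 h 0 were called higher (1.28%) and 1 lower (2.86%). At 24 h 0 were called higher (0.253%) and 0 lower (0.044%), and at 72 h 0 were called higher (1.13%) and 1 lower (3.05%), with medians of -0.02, -0.07, -0.12 and -0.20. Txnip, a glucose-induced inhibitor of glucose uptake, rose by 1.5 ± 0.21 at 2 h (limma adjusted p = 0.000324). Mlxipl, which encodes ChREBP, had differences of -0.02, 0.22, -0.30 and -0.18 at the 4 times (SE 0.16 each), and none was called. The activity of ChREBP was not measured, and its part in the differences of Pklr and Txnip was not tested. Gcgr, the glucagon receptor, fell by 0.37 ± 0.09 at 8 h (adjusted p = 0.0214, kept in 2 of 6 fits without 1 array) and by 0.23 ± 0.05 on average (adjusted p = 0.00335). Hnf4a, a nuclear receptor that drives many hepatocyte genes, fell by 0.46 ± 0.11 at 72 h (adjusted p = 0.0221, kept in 3 of 6 fits). Srebf1, through which insulin acts on glycolytic and lipogenic genes, had differences from -0.42 to -0.17, and none was called. Mlxipl and Srebf1 were chosen after their values were seen. Of the mean differences 1 was called higher (Txnip), against 1.98% of all genes, and 3 lower (Gcgr, Ppargc1a and Prkaa2), against 4.42%, and the call of Prkaa2 was kept in 6 of 24 fits without 1 array. Ppargc1a, a coactivator of gluconeogenic genes, averaged -0.68 (limma adjusted p = 0.0477, kept in 6 of 24 fits without 1 array), but its direction changed. The F test of limma for an effect at any time called Ppargc1a (adjusted p = 0.0212, kept in 22 of 24 fits without 1 array). The differences of Ppargc1a were -1.56, -0.99, -0.85 and 0.69 at 2, 8, 24 and 72 h (SE 0.41 each), none of them called. Its group means were 6.19 with DEHP and 7.75 with corn oil at 2 h. At 72 h they were 8.26 with DEHP and 7.57 with corn oil, and all DEHP arrays lay above all corn oil arrays. Cebpb, a transcription factor that acts on Pck1 and other liver genes, was called by the F test for an effect at any time (adjusted p = 0.0132), with differences of 0.64, 0.50, -0.17 and -0.47, none of them called.

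Hepatocyte markers were set beside these values. Their mean signal was 13.65 to 13.67 on the DEHP arrays of 24 h, against 13.75 to 13.81 on the corn oil arrays, and 13.61 to 13.66 on the DEHP arrays of 72 h, against 13.72 to 13.77 on the corn oil arrays. At 2 h it was 13.68 to 13.77 on the DEHP arrays, against 13.69 to 13.77 on the corn oil arrays, with overlap. At 8 h it was 13.63 to 13.68 on the DEHP arrays, against 13.66 to 13.72 on the corn oil arrays, also with overlap. At 72 h 1 of the 8 measured markers was called, against 4.18% of all genes. That marker was Hnf4a, whose fall at 72 h is given above and enters this mean. The part of hepatocyte RNA in the differences at any of these times was not tested. The titles number the arrays, and the first replicates of all groups carry the lowest numbers. Among those 8 arrays the averaged DEHP minus corn oil difference was -0.52 for Pklr, -0.19 for Gckr and -0.25 for Slc2a2, and among the other 16 arrays it was -0.76 for Pklr, -0.40 for Gckr and -0.36 for Slc2a2. The labels do not call these numbers batches.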

How the data were processed

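Liver RNA from 24 samples was measured on Affymetrix arrays of 45101 probe sets. The authors deposited log2 signals computed with RMA, per the submitters' processing notes, in a version not given in the sources used here. Per the labels, standard Affymetrix procedures were used for labelling. Probe sets were named through the platform annotation supplied with the series: 34958 carried 1 symbol, 932 several, which name no gene here, and 9211 had no annotation row.

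Groups came from the sample labels. One model of the 8 group means was fitted to 18194 genes in R 4.3.3 with limma 3.58.1 (16 residual and 6.21 prior degrees of freedom), with Benjamini-Hochberg adjustment and a threshold of 0.05. SE are moderated standard errors and intervals are 95%. Precision is limited by the number of arrays. The code was tested on simulated data. Replicate numbers did not pair arrays: the correlations of same-numbered arrays lay between -0.351 and 0.144. Corn oil replicate 3 and DEHP replicate 2 of 8 h, in opposite groups, share the number 14 in their titles. Their signals correlated with r = 0.99, inside the range of replicate arrays (0.989 to 0.996). In the separate measure used for same-numbered arrays, r of this pair was -0.000717.

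The members and gene lists were chosen with earlier results of these data known, and the mean over times was added after the values were seen. Every member is named, as are list genes called by a test of the DEHP effect, isoforms or partners of members, and the 3 genes that correlated best with a called member. Alternatives were replicate blocks, filters, normalizations, array weights, a covariate, other probe sets and leaving out arrays.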

Additional observations from a re-analysis of the deposited data

Results flagged for a closer look

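No member met a rule for a closer look, and 5 genes of the wider lists did, because the F test of limma found that their DEHP effect differed between times (Benjamini-Hochberg adjustment over all genes). For Slc16a1 the adjusted p was 0.000898, with differences of 0.73, 1.07, 0.21 and -0.33 at 2, 8, 24 and 72 h. For Bpgm the adjusted p was 0.00773, with differences of 0.13, 0.27, 0.36 and -0.37. For Txnip the adjusted p was 0.00911, with differences of 1.5, 0.59, -0.04 and -0.13. For Cebpb the adjusted p was 0.0237, with differences of 0.64, 0.50, -0.17 and -0.47, and the call was lost without replicate 3 of DEHP at 72 h (adjusted p = 0.0632). For Slc2a1 the adjusted p was 0.0371, with differences of -0.34, 0.54, 0.04 and 0.01, and the call was lost in 13 of 24 fits that left out 1 array.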

How the results depend on the processing

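Gckr and Pklr were called for the mean over the 4 times in all 24 fits that left out 1 array and in all 12 other settings. Slc2a2 was called in all 24 fits and in 11 of the 12, the exception being a threshold of 0.01, under which 2 members were called in place of 4. Leaving out 1 array moved these differences between -0.75 and -0.60 for Pklr, -0.36 and -0.29 for Gckr, -0.37 and -0.28 for Slc2a2, and -0.23 and -0.15 for Pcx. Pcx stayed called in 7 of 24 fits and in 5 of the 12 other settings. Among the settings in which it was lost were median centring (limma adjusted p = 0.0985) and the fit without both arrays numbered 14 (0.0742). Fbp1 was called with genes above the 40th percentile, the mean of probe sets, a variance trend, array weights, and without replicate 2 of corn oil at 2 h or replicate 1 of corn oil at 72 h. Pfkfb3 was called without replicate 1 of corn oil at 8 h (adjusted p = 0.0476) or replicate 2 of corn oil at 24 h (0.0404). The uncalled G6pc difference of 0.04 ranged from -0.05 to 0.10 when 1 array was left out, and was -0.05 without replicate 3 of corn oil at 2 h and -0.01 without replicate 1 of corn oil at 8 h or of DEHP at 24 h.

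Members called for an effect at any time numbered 1, and 0 at a threshold of 0.01. They numbered 3 with array weights, with genes above the 40th percentile, with quantile normalization, and without both replicate 2 of corn oil at 8 h and replicate 1 of corn oil at 72 h. Leaving out 1 array gave 0 to 3. At 2 h that range was 0 to 2. At 8 h array weights gave 1 (Slc2a2), and at 72 h array weights and the 6 arrays of that time alone gave 1 (Pfkfb3). The corn oil comparison of times gave 1 (Pfkfb3) with array weights and 0 to 1 when 1 array was left out. With the replicate number as a fixed block, 2 members were called at any time, 0 at each single time, and 3 for the mean, Pcx being lost (adjusted p = 0.0555); no other member's call for the mean was lost under the block. The causes were not tested.

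Over all genes, 151 were called at 2 h (65 to 239 under the alternatives at the threshold of 0.05), 752 at 8 h (327 to 1106), 54 at 24 h (21 to 97), 760 at 72 h (247 to 2749), 1176 at any time (842 to 2549), 378 for a difference between times (224 to 890), 646 in corn oil (181 to 948) and 1166 for the mean (840 to 1502). With 3 arrays a group, differences of members at 1 time had standard errors up to 0.37 (Pfkfb3), which limits what can be called, and detection calls were not used here.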
